A study of Homo sapiens with 18 samples.

Results

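The TRIM family was examined in RKO-iCas9 cells, human colon carcinoma cells that make Cas9 when doxycycline is added. Family members were taken as the genes whose symbol is TRIM followed by a number, apart from TRIM28, with at least 50 reads summed over the 18 libraries of the series. Of 39859 symbols in the count tables, 64 matched the name and 36 reached the minimum. The 2 members nearest the minimum were TRIM22 and TRIM73 with 55 reads each, and the nearest symbol below it was TRIM34 with 47 reads. Of the 28 matching symbols left out, 20 had no read in any library, among them TRIM6, TRIM29, TRIM59, TRIM63 and TRIM71, and the other 8 had 1 to 47 reads.

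Libraries were made by QuantSeq, which reads the end of a polyadenylated transcript next to its poly(A) tail. The design asked how targeting of ERH, a small conserved protein linked to mRNA processing, changes gene expression and cytokine responses. All groups carried the inducible Cas9 and were given 100 ng/mL doxycycline for 5 days. The guide RNA they expressed targeted ERH (sgERH) or, as the control, the safe-harbour locus AAVS1 (sgAAVS1), and they then were non-treated (NT, water alone) or received 25 ng/mL IFNγ or 10 ng/mL IL-1β for 4 h. The edited cells were sorted pools on 1 background line and not single knockout clones, so a share of cells in sgERH libraries can keep ERH. The labels list 3 biological replicates for each of the 6 groups, without saying whether these were separate cultures, and the p-values therefore reflect a spread between libraries that may be technical.

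The study set aside 3 libraries after a principal component analysis (sgAAVS1 NT replicate 1, sgERH IFNγ replicate 2 and sgAAVS1 IL-1β replicate 3), and the values below come from the other 15, with 4987127 to 5986338 counts each. The 3 left out had 3811492, 4293010 and 11821239 counts. This leaves 2 libraries for sgAAVS1 NT, sgAAVS1 IL-1β and sgERH IFNγ and 3 for each other group. ERH itself measured 515 to 592 CPM (counts relative to each library's total, here without scaling factors) in sgAAVS1 libraries and 257 to 355 in sgERH libraries. Where the guide cuts relative to the counted 3′ end was not examined, so these reads do not measure editing. In the left-out library labelled sgAAVS1 NT, ERH was 52.7 CPM, below every kept library of either guide, so this value matches neither. The left-out sgERH IFNγ library had 126 CPM, also below every kept library, and the left-out sgAAVS1 IL-1β library 676 CPM. Whether the labels of these libraries are right was not tested. The epithelial genes KRT8, KRT18, EPCAM and the intestinal factor CDX2 had reads in every library, whereas KRT19, CDH1 and VIL1 were at or near 0. Of the 12 markers of leukocytes, fibroblasts and endothelium, none exceeded 0.395 CPM. Some of the epithelial genes differed between guides without overlap: EPCAM had 4.42 to 7.54 CPM in sgAAVS1 and 14 to 21.1 in sgERH, CDX2 5.8 to 9.02 against 10.5 to 17.9, and KRT18 80.8 to 105 against 54.9 to 76.6, while KRT8 overlapped. Their part in the guide differences below was not tested. As the samples are bulk RNA, fewer expressing cells and less RNA per cell cannot be told apart.

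TRIM proteins typically join a RING finger, which lets a ubiquitin ligase pass ubiquitin to its substrate, with B-box zinc fingers and a coiled coil, and end in a variable domain that picks the target. The largest subgroup ends in a SPRY domain, and others carry NHL repeats, a PHD finger with a bromodomain, or no known C-terminal domain. Several act in innate immunity: TRIM21 binds antibody-coated viruses in the cytosol, TRIM5 binds retroviral capsids, and TRIM25 ubiquitinates components of the RIG-I route of RNA sensing. Interferons switch on some of these genes through promoter elements that include the gamma-activated sequence and the interferon-stimulated response element, the latter bound by interferon regulatory factors.

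Promoter sequences from RefSeq on GRCh38.p14, spanning 250 bases before to 50 after each start site, were found for 27 of the 36 members. The response element core, searched on both strands as GAAANNGAA, was held by 8.29% of all 27305 promoters of this length and by 8 of the 27 (TRIM2, TRIM5, TRIM14, TRIM16, TRIM21, TRIM26, TRIM44 and TRIM69). The gamma-activated sequence, searched as TTCNNNGAA, was held by 7.88% of all promoters and by TRIM2, TRIM3 and TRIM16. An NF-κB motif, GGGNNTTTC, was held by 4.73% of all promoters and by TRIM68. TRIM2 and TRIM16 held both of the first 2 motifs, at places that did not overlap. Such a match is a description of the letters and not a binding site. The start sites are those of RefSeq, and for TRIM5 and TRIM69 they lie well inside the GENCODE gene spans given below. Which start these cells used was not tested. The windows around the matches of the interferon-linked members are shown first, because IFNγ is one of the cytokines given; of these 5 genes TRIM21 and TRIM69 rose with it. They are printed with the matched letters in capitals and the RNA strand of the gene written 5′ to 3′.
TRIM21, bases 10 to 39 after the start (chr11:4393664-4393693, minus strand, 2 overlapping matches): tctgagcgGAAACTGAAAGTGAAataggga
TRIM5, bases -37 to -8 (chr11:5685082-5685111, minus strand): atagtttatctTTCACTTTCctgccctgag
TRIM14, bases -36 to -7 (chr9:98119229-98119258, minus strand): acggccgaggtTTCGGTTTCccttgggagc
TRIM26, bases -201 to -172 (chr6:30213578-30213607, minus strand, 2 overlapping matches): cgcctgatTTCAGTTTCCATTTCgctgccc
TRIM69, bases -250 to -1 (chr15:44736278-44736527, plus strand): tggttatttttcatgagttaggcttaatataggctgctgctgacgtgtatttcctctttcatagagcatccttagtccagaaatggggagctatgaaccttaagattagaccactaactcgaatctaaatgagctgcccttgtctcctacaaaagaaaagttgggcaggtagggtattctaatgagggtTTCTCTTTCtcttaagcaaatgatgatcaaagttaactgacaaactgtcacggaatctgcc

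TRIM25 and TRIM56 also rose with IFNγ, and their windows held none of the 3 motifs. Their 250 bases before the start are shown for comparison with the matches above. No match says only that these letters are not in this window.
TRIM25, bases -250 to -1 (chr17:56914050-56914299, minus strand): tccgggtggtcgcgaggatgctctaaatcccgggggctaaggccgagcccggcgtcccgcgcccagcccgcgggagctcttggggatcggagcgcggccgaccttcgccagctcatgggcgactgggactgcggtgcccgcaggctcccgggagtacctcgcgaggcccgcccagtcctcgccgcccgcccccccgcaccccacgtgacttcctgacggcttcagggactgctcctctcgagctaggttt
TRIM56, bases -250 to -1 (chr7:101085231-101085480, plus strand): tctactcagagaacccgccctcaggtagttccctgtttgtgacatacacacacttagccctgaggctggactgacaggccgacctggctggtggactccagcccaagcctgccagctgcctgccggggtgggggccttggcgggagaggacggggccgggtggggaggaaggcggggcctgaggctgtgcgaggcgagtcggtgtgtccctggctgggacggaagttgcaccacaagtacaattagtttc

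The family took a small part of all reads, 0.071% to 0.0773% per library in sgAAVS1 NT and IL-1β cells, 0.0908% to 0.0939% in sgAAVS1 IFNγ cells and 0.0936% to 0.1012% in sgERH cells. CPM from here on are scaled by TMM factors, which correct library size for the composition of the counts. Reads were taken at 3′ ends and were not divided by transcript length, so the order below is one of 3′-end reads. TRIM11, a ligase linked to protein quality control, had the most, with a mean of 191 CPM over the 15 libraries. TRIM44, which has a ubiquitin-binding zinc finger in place of a RING, followed with 109 CPM, and TRIM56, a ligase of antiviral signalling, with 79.7 CPM. This order is by the mean over all 15 libraries, and in sgAAVS1 IFNγ cells TRIM56 (mean 111 CPM) stood above TRIM44 (mean 99.3 CPM). The 141 to 238 CPM of TRIM11 overlapped the 74.4 to 145 CPM of TRIM44 over libraries, and so did those of TRIM44 and TRIM56 (49.7 to 113 CPM).

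TRIM11 measured 209 and 200 CPM in sgAAVS1 NT, 180, 165 and 170 in sgAAVS1 IFNγ, and 141 and 167 in sgAAVS1 IL-1β. In sgERH it measured 196, 201 and 232 CPM without cytokine, 188 and 204 with IFNγ, and 238, 205 and 172 with IL-1β. The highest and lowest libraries both came from IL-1β groups, and the ranges of the guides overlapped. At the other end, 7 of the 36 had fewer than 10 reads in at least 1 library and 2 of these, TRIM22 and TRIM73, had libraries at 0.

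**Figure D1:**
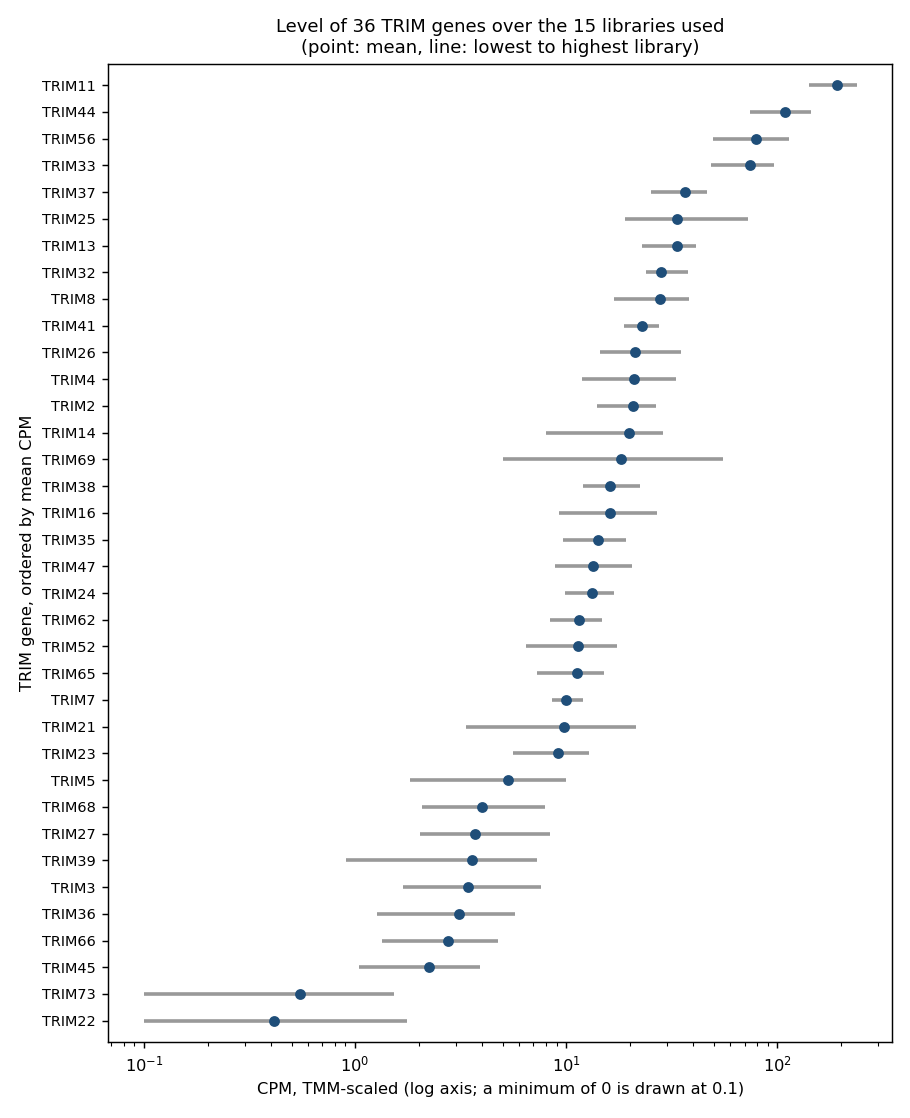
Level of each of the 36 TRIM genes over the 15 libraries used, as TMM-scaled CPM on a log axis. Points are means and lines run from the lowest to the highest library, from TRIM11 with a mean of 191 CPM down to TRIM22 and TRIM73, whose minimum of 0 is drawn at 0.1.

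Reads that map to more than 1 place made up 20.4% to 23.2% of a library, and for some members nearly all reads were of this kind. Over the 15 libraries these were 99.9% of TRIM69 reads, 99.4% of TRIM26, 100% of TRIM27 and of TRIM39, 97.8% of TRIM73 and 46.2% of TRIM16. TRIM26, TRIM27 and TRIM39 lie on chromosome 6, TRIM39 overlaps the read-through gene TRIM39-RPP21, and TRIM16 has a near copy, TRIM16L. The counts of these genes could have been divided among copies, and their values are uncertain. Of the other members, TRIM22 had 14.7% multimapping reads, TRIM56 1.64% and the rest less.

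IFNγ raised 4 TRIM genes in sgAAVS1 cells: TRIM21, TRIM25, TRIM56 and TRIM69. The tests were edgeR quasi-likelihood tests over 13370 genes, 34 of them TRIM genes, since TRIM22 and TRIM73 did not pass the filter on low counts. Rises and falls in this text are calls, which needed a Benjamini-Hochberg adjusted p of at most 0.05 with a log2 fold change of at least 1 in size. The 4 of 34 tested (11.8%) compare with 0.598% of all genes that rose. No TRIM gene fell with IFNγ in sgAAVS1 by edgeR, and DESeq2 also called 4. In either direction 7 of the 34 reached an unadjusted p under 0.05, beside 1253 of all 13370 genes. The median log2 fold change was 0.06 for the 34 and -0.02 for all genes, so most of the family lay near 0.

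TRIM69 is a ligase of the SPRY class with known antiviral activity, at chr15:44728988-44767829, a gene of 7 exons that lies 10137 bases from B2M. It measured 6.93 and 11.4 CPM in sgAAVS1 NT and 55.3, 49.6 and 54.9 CPM with IFNγ. Every IFNγ library was above every NT library, with a log2 fold change of 2.52 ± 0.24 (SE; edgeR adjusted p = 5.89e-08). With multimapping reads removed it had too few reads to be tested, so its value rests on reads that map to more than 1 place.

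TRIM21 (chr11:4384897-4393702, 7 exons) measured 3.36 and 3.99 CPM in sgAAVS1 NT and 19.3, 14.7 and 21.5 CPM with IFNγ. The groups did not overlap, and the log2 fold change was 2.32 ± 0.34 (edgeR adjusted p = 0.000112). Its window holds both response element matches shown above.

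TRIM25 (chr17:56836387-56914080, 9 exons) measured 25.2 and 28.5 CPM in sgAAVS1 NT against 72.9, 58.8 and 67 CPM with IFNγ, a log2 fold change of 1.30 ± 0.17 by edgeR (adjusted p = 2.12e-05). TRIM56 (chr7:101085481-101097967, 3 exons) measured 54.2 and 51.7 CPM against 108, 110 and 113 CPM, a log2 fold change of 1.06 ± 0.13 by edgeR (adjusted p = 5.07e-06). In both genes the IFNγ libraries lay above the NT libraries by more than the spread within either group. TRIM56 sat just past the fold threshold.

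**Figure D2:**
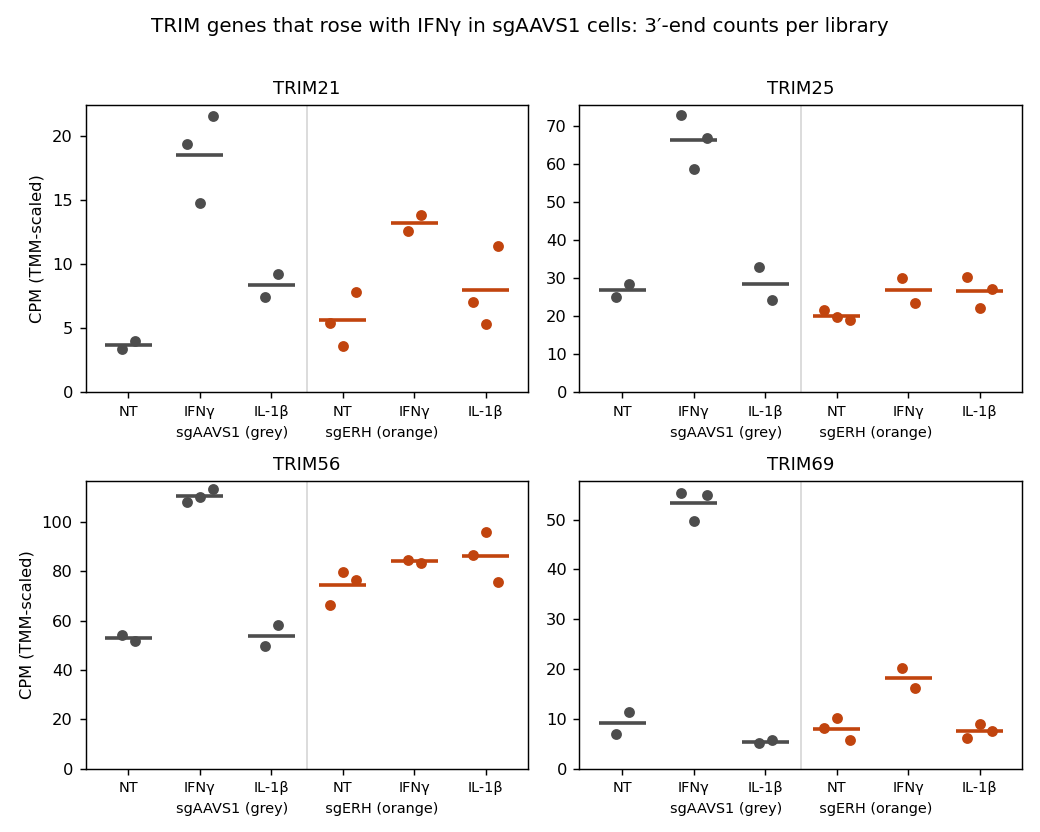
TMM-scaled CPM of TRIM21, TRIM25, TRIM56 and TRIM69 in each library by guide and treatment, with points for libraries (2 or 3 per group) and a bar at the group mean. In grey sgAAVS1 cells the IFNγ libraries stand above NT and IL-1β in each panel (for TRIM69 49.6 to 55.3 CPM against 5.05 to 11.4), and in orange sgERH cells the IFNγ libraries are lower than in sgAAVS1.

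The 3 libraries left out bear on these calls. With all 18 in the fit TRIM69 was the 1 TRIM gene called with IFNγ in sgAAVS1, and TRIM21 (log2 fold change 2.54, edgeR adjusted p = 0.286), TRIM25 (1.66, adjusted p = 0.0563) and TRIM56 (0.48, adjusted p = 0.585) did not pass. In the left-out sgAAVS1 NT library, unscaled values were 103 CPM for TRIM56, 7.35 for TRIM25, 1.57 for TRIM21 and 8.66 for TRIM69. Leaving out any 1 of the 5 libraries compared changed none of the 4 calls.

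A list of 12 interferon-linked and antiviral TRIM genes held 8 tested ones, the 4 that rose and TRIM5, TRIM14, TRIM26 and TRIM38. The log2 fold changes of the 8 with IFNγ in sgAAVS1 ran from 0.51 to 2.52 with a median of 0.83. Those outside the calls were TRIM38, a brake on cytokine and Toll-like receptor signalling (0.60 ± 0.21, edgeR adjusted p = 0.272), TRIM26 (0.55 ± 0.23, adjusted p = 0.442), TRIM14, a mitochondrial adaptor of RNA sensing without a RING (0.51 ± 0.24, adjusted p = 0.521), and TRIM5 (0.57 ± 0.42, adjusted p = 0.706).

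TRIM14 measured 18.5 and 20.1 CPM in sgAAVS1 NT, 28.9, 26.5 and 27 with IFNγ, and 18.4 and 20.3 with IL-1β. TRIM38 measured 12 and 16.7 CPM in sgAAVS1 NT, 20.8, 22.4 and 22.1 with IFNγ, and 12.9 and 12.9 with IL-1β. In both genes the 3 IFNγ libraries lay above the other sgAAVS1 libraries, although the adjusted p missed the threshold. In sgERH cells TRIM14 measured 16.9, 17.3 and 22.3 CPM in NT, 18.9 and 16.9 with IFNγ, and 16.6, 8.01 and 20.5 with IL-1β. In sgERH cells TRIM38 measured 15.5, 16 and 12.1 CPM in NT, 16.1 and 16.2 with IFNγ, and 15.7, 15.4 and 16.1 with IL-1β. The sgERH groups of TRIM14 overlapped, and those of TRIM38 lay within a narrow range.

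TRIM22, an antiviral ligase that interferon and p53 can induce, was near the limit of detection. It had 1 read over the 2 sgAAVS1 NT libraries, 4 over the 3 sgAAVS1 IFNγ libraries and 2 over the 2 sgAAVS1 IL-1β libraries. In sgERH it had 6 reads in NT, 11 with IFNγ and 10 with IL-1β. Its libraries measured 0.21 and 0 CPM in sgAAVS1 NT, 0.208, 0.56 and 0 in sgAAVS1 IFNγ, 0 and 0.41 in sgAAVS1 IL-1β, 0.522, 0 and 0.51 in sgERH NT, 0.74 and 1.27 in sgERH IFNγ, and 1.77, 0 and 0 in sgERH IL-1β. At this depth no difference could be measured for TRIM22. A floor of 3 reads, which covers counting error only as the reads carry no molecular identifiers, exceeds its count in 2 of the 3 sgAAVS1 groups.

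In sgERH cells none of the 34 TRIM genes was called with IFNγ by edgeR, against 0.015% of all genes called in either direction. Of the 34, 4 reached an unadjusted p under 0.05, beside 888 of all 13370 genes, and DESeq2 called 1, TRIM69. TRIM69 measured 8.18, 10.1 and 5.78 CPM in sgERH NT and 20.2 and 16.2 with IFNγ, a log2 fold change of 1.18 ± 0.24 by edgeR (adjusted p = 0.0633). TRIM21 measured 5.39, 3.6 and 7.82 CPM in NT and 12.6 and 13.8 with IFNγ, a log2 fold change of 1.23 ± 0.31 (adjusted p = 0.282). In both genes the 2 IFNγ libraries lay above the 3 NT libraries. TRIM25 measured 21.7, 19.8 and 19 CPM in NT and 30 and 23.6 with IFNγ (log2 fold change 0.41 ± 0.18, edgeR adjusted p = 0.703). TRIM56 measured 66.5, 79.8 and 76.5 CPM in NT and 84.5 and 83.6 with IFNγ (0.18 ± 0.12, adjusted p = 0.824). The call depended on the fit for TRIM69, which passed by edgeR without the filter on low counts (adjusted p = 0.00215), with the compared groups alone (adjusted p = 0.0321) and without sgERH NT replicate 2 (adjusted p = 0.0454). The same 2 fits, without the filter and with the compared groups alone, called TRIM21 (adjusted p = 0.0337 and 0.0464).

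The difference between guides in the IFNγ response was tested as an interaction term. No TRIM gene was called, against 0.202% of all genes called in either direction, and DESeq2 called 0. An unadjusted p under 0.05 was reached by 4 of the 34, beside 781 of all 13370 genes. Of the TRIM genes, TRIM56 alone passed the adjusted p without the fold threshold, where 0.232% of all genes passed as lower. The log2 difference for TRIM56 was -0.88 ± 0.18 (edgeR adjusted p = 0.0216), or from -1.25 to -0.52 within 2 SE on either side. It rested on the libraries kept: with all 18 it was 0.06 ± 0.46 (edgeR adjusted p = 0.945), and 8 of the 10 fits that left out 1 library no longer passed. Over those 10 it ran from -0.96 to -0.83, with adjusted p from 0.0184 to 0.178. The other 3 genes that rose in sgAAVS1 had log2 differences of -1.34 ± 0.34 for TRIM69 (adjusted p = 0.155), -1.09 ± 0.47 for TRIM21 (adjusted p = 0.798) and -0.89 ± 0.25 for TRIM25 (edgeR adjusted p = 0.291). All 8 tested genes of the interferon-linked list had a difference below 0, from -1.34 to -0.27 with a median of -0.73. Over all genes the median was 0.01, and 51.7% lay above 0. Of the 8, 1 passed the adjusted p. With all 18 libraries 6 of the 8 were below 0. The 8 include the 4 that rose in sgAAVS1, which were picked on the response that this term subtracts. The sign of these 4 is therefore not independent of that choice. The list was chosen with earlier results of these data known, and all 8 genes were read in the same libraries. Their signs are thus not 8 independent results. TRIM69 was called without the filter on low counts (-1.36, edgeR adjusted p = 0.032) and with the compared groups alone (-1.38, adjusted p = 0.0269).

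**Figure D3:**
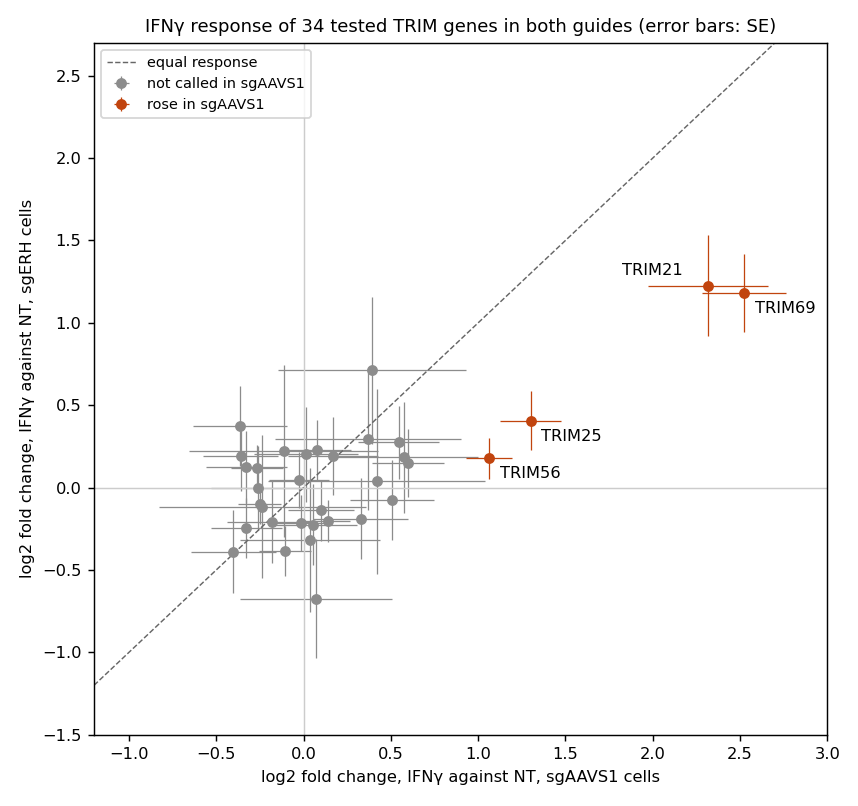
Log2 fold change with IFNγ in sgAAVS1 cells (horizontal) and in sgERH cells (vertical) for the 34 TRIM genes tested, with SE as error bars and a dashed line for equal responses. The 4 genes that rose in sgAAVS1 cells lie below the line (TRIM69 at 2.52 and 1.18, TRIM56 at 1.06 and 0.18). They were picked by their horizontal value, so lying below the line is not independent of that choice. The other 30 run from -0.40 to 0.60 in sgAAVS1 and from -0.68 to 0.71 in sgERH.

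Genes of the same route that are not TRIM members gave the setting for these values. The IFNγ reference genes IRF1, GBP1, PSMB9 and SOCS1 rose in sgAAVS1 cells. In sgERH cells IRF1 rose (log2 fold change 2.07 ± 0.12, against 5.18 ± 0.14 in sgAAVS1). SOCS1 had 0 reads and GBP1 1 read in sgAAVS1 NT, under the floor of 3 reads, so the size of their rises is not measured. SOCS1 had a mean of 2.22 CPM in sgERH NT, already above the 1.99 CPM of sgAAVS1 IFNγ, so its missing call in sgERH does not show a lost response. Among 5 tested relatives of the family, PML, the organizer of nuclear bodies and itself a TRIM protein by structure, rose with IFNγ in sgAAVS1 from 11.5 and 11.8 CPM to 43, 37.5 and 31.3 CPM (1.67 ± 0.23, edgeR adjusted p = 3.27e-05). Its log2 difference between guides was -1.51 ± 0.32 (edgeR adjusted p = 0.0309), so PML responded less in sgERH in the 15 libraries used. With all 18 libraries in the fit, no difference among the 5 relatives was below -0.44.

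From a list of 19 ubiquitin-conjugating enzymes and RIG-I route partners, 18 were tested, and 2 rose with IFNγ in sgAAVS1, against 0.598% of all genes, and 0 fell. These were UBE2L6, the enzyme that passes on ISG15 (1.503 ± 0.20, edgeR adjusted p = 1.58e-05), and DDX58, which encodes RIG-I (1.53 ± 0.37, adjusted p = 0.0393). In sgERH neither was called with IFNγ: UBE2L6 had a log2 fold change of 0.20 ± 0.19 (adjusted p = 0.885) and DDX58 one of 1.13 ± 0.36 (edgeR adjusted p = 0.58), with both IFNγ libraries above all NT libraries. The difference between guides was called for UBE2L6 (-1.30 ± 0.28, edgeR adjusted p = 0.0313) and no other gene of the list, and for DDX58 it was -0.40 ± 0.53 (adjusted p = 0.948).

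IL-1β left the family without a call. In sgAAVS1 cells edgeR called 0 of 34 TRIM genes, against 0.636% of all genes in either direction, 6 reached an unadjusted p under 0.05, and DESeq2 called 0. In sgERH cells it called 0 against 0.292% of all genes, with 3 at an unadjusted p under 0.05 and 0 by DESeq2. For the difference between guides in the IL-1β response edgeR called 0 of 34 and 0% of all genes. There 2 TRIM genes had an unadjusted p under 0.05 and 0 were called by DESeq2. In these comparisons, in the same order, 1691, 1869 and 1487 of all 13370 genes had an unadjusted p under 0.05.

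The lowest adjusted p with IL-1β in sgAAVS1 was shared by TRIM21 and TRIM11. TRIM21 measured 7.47 and 9.23 CPM with IL-1β, above both NT libraries, with a log2 fold change of 1.17 ± 0.39 by edgeR (adjusted p = 0.166). In the fit of the compared groups alone it was called (1.20, edgeR adjusted p = 0.046). In sgERH TRIM21 measured 7.08, 5.34 and 11.4 CPM with IL-1β, which overlapped NT. TRIM11 had a log2 fold change of -0.41 ± 0.14 in sgAAVS1 (edgeR adjusted p = 0.166). TRIM36, a microtubule-associated ligase, had 1.40 ± 0.54 (adjusted p = 0.254), and TRIM69 had -0.78 ± 0.31 (adjusted p = 0.272), with 5.05 and 5.74 CPM. TRIM47 had similar values in both guides, 0.64 ± 0.27 in sgAAVS1 and 0.58 ± 0.21 in sgERH (edgeR adjusted p = 0.298 and 0.2).

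TRIM25 measured 32.9 and 24.2 CPM with IL-1β in sgAAVS1 and 30.2, 22.3 and 27.2 in sgERH. TRIM56 measured 49.7 and 58.2 CPM in sgAAVS1 and 86.7, 96.1 and 75.8 in sgERH. TRIM69 in sgERH measured 6.19, 8.96 and 7.54 CPM. Each of these values lay below the lowest sgAAVS1 IFNγ library of its gene. A list of 7 TRIM genes linked to NF-κB, the factor that IL-1β activates, held 6 tested ones (TRIM8, TRIM13, TRIM23, TRIM27, TRIM37 and TRIM38), 0 of which were called with IL-1β in either guide. Their log2 fold changes ran from -0.36 to 0.76 in sgAAVS1 with a median of -0.02, equal to that of all genes, and from -0.03 to 0.41 in sgERH with a median of 0.12. Of the partner list, TAB2, an adaptor of the IL-1 route, rose in sgAAVS1 from 14.5 and 19.2 CPM to 41.4 and 42.6 CPM (1.31 ± 0.24, edgeR adjusted p = 0.00586). In sgERH TAB2 had 0.44 ± 0.18 with IL-1β (edgeR adjusted p = 0.271), from an NT mean of 32.5 CPM that was already above that of sgAAVS1 by 0.94 ± 0.23 (adjusted p = 0.00332), and the difference between the 2 responses was -0.87 ± 0.31 (adjusted p = 0.35).

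Between guides without cytokine, 3 TRIM genes were called. In NT cells TRIM39, TRIM5 and TRIM68 (3 of 34, 8.82%) were higher in sgERH, a share close to the 5.95% of all genes, and 0 were lower, against 2.3%. On an adjusted p of at most 0.05 without the fold threshold, 8 of 34 (23.5%) were higher against 12.4% of all genes and 0 were lower against 13.7%. At an unadjusted p under 0.05 there were 10 of 34 in either direction, beside 4959 of all 13370 genes. DESeq2 also called 3 with the fold threshold. Leaving out sgAAVS1 NT replicate 3 ended all 3 calls (TRIM39 0.86, TRIM5 0.97 and TRIM68 1.24, with edgeR adjusted p of 0.356, 0.195 and 0.107), and that left a single sgAAVS1 NT library. TRIM39 also lost its call without sgERH NT replicate 1 or 2, and TRIM68 without sgAAVS1 NT replicate 2 or sgERH NT replicate 2. Over the 5 fits TRIM39 ran from 0.86 to 2.53, TRIM5 from 0.97 to 1.76 and TRIM68 from 1.11 to 1.503.

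Averaged over NT, IFNγ and IL-1β, 4 of 34 (11.8%) were higher in sgERH, TRIM3, TRIM4, TRIM5 and TRIM39, against 6.75% of all genes, and 0 were lower against 2.14%. On the adjusted p alone 13 of 34 (38.2%) were higher against 25.5% of all genes, and 5 (14.7%) were lower against 23.2%. The median log2 difference was 0.23 for the 34 and 0.04 for all genes, and 25 of the 34 lay above 0, as did 53.1% of all genes. DESeq2 also called 4. Across the 34 genes, which are not independent replicates, the difference had a Spearman rho of 0.102 with the number of exons and -0.258 with mean CPM.

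**Figure D4:**
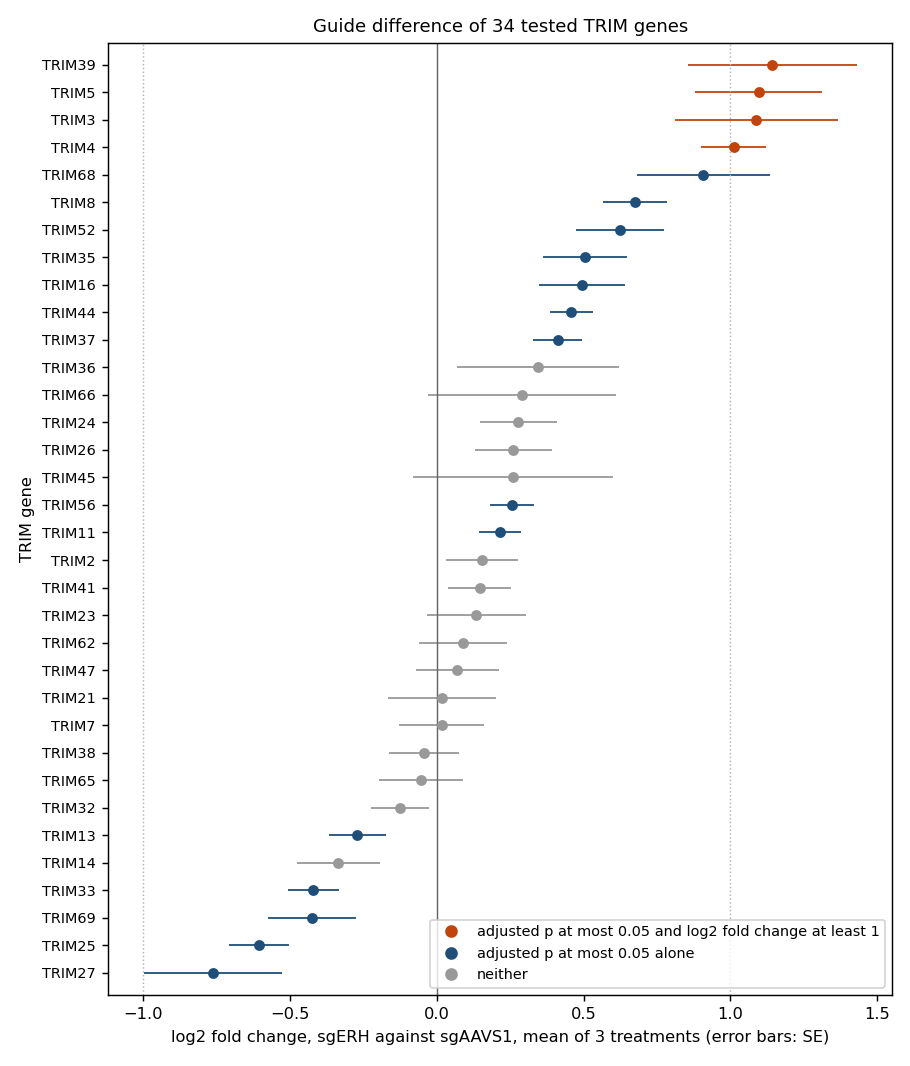
Log2 difference between sgERH and sgAAVS1, averaged over NT, IFNγ and IL-1β, for the 34 TRIM genes tested, in order of size with SE as error bars. Orange marks the 4 called genes (1.01 to 1.14), blue those past the adjusted p alone and grey the rest, and dotted lines mark a log2 difference of 1 in size.

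TRIM4, a SPRY-class ligase linked to the RIG-I route (chr7:99876958-99919531, 6 exons), had the smallest adjusted p. It measured 17.4 and 14.3 CPM in sgAAVS1 NT, 12.5, 12.9 and 12.5 with IFNγ, and 12.9 and 11.9 with IL-1β. With ERH targeted it measured 29.6, 28.1 and 33.2 CPM in NT, 20.9 and 30.2 with IFNγ, and 26.5, 26.5 and 25.8 with IL-1β. All 8 sgERH libraries were above all 7 sgAAVS1 libraries, with an average log2 difference of 1.01 ± 0.11 (edgeR adjusted p = 2.55e-08). The difference was 0.94 in NT, 1.02 with IFNγ and 1.08 with IL-1β, of which the last 2 were called. The average lies at the fold threshold, and removing any of 4 single libraries (sgAAVS1 NT replicate 3, sgERH NT replicate 3, sgERH IFNγ replicate 3 or sgAAVS1 IL-1β replicate 2) put it just below 1 (0.91 to 0.99). The call with IFNγ held in 3 of 7 alternative fits (0.81 to 1.01) and was lost without sgERH IFNγ replicate 3 (0.72, adjusted p = 0.0346). In the left-out libraries unscaled TRIM4 was 1.57 CPM in sgAAVS1 NT, 4.57 in sgAAVS1 IL-1β and 15.6 in sgERH IFNγ.

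TRIM5 (chr11:5663195-5938619, 8 exons) measured 3.15 and 1.81 CPM in sgAAVS1 NT, 4.16, 3.55 and 3.28 with IFNγ, and 3.63 and 4.1 with IL-1β. The sgERH libraries measured 7.13, 5.23 and 6.29 CPM in NT, 9.06 and 5.09 with IFNγ, and 7.96, 5.34 and 10 with IL-1β. Here too all sgERH libraries were above all sgAAVS1 libraries, and the average log2 difference was 1.10 ± 0.22 (edgeR adjusted p = 0.000136). Within treatments it was 1.34 ± 0.40 in NT (adjusted p = 0.0139), 0.95 ± 0.36 with IFNγ (adjusted p = 0.0528) and 1.01 ± 0.37 with IL-1β (edgeR adjusted p = 0.0424). The IL-1β call held in 3 of 7 alternative fits (0.93 to 1.03) and in 1 of the 5 that left out 1 library (0.79 to 1.21), all but the one without sgERH IL-1β replicate 2 ending it. The average fell short of the fold threshold without sgAAVS1 NT replicate 3 (0.97) or sgERH IFNγ replicate 1 (0.94). TRIM5 had 10 to 57 reads per library, so counting error is a large part of its spread.

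TRIM68, a ligase of the SPRY class known as a cofactor of the androgen receptor (chr11:4598672-4608231, 7 exons), measured 2.52 and 2.18 CPM in sgAAVS1 NT, 2.08, 2.24 and 3.07 with IFNγ, and 3.23 and 3.08 with IL-1β. Its sgERH libraries had 4.7, 7.93 and 5.44 CPM in NT, 3.51 and 4 with IFNγ, and 6.01, 5.91 and 4.21 with IL-1β. The ranges of the guides did not overlap. The log2 difference was 1.35 ± 0.39 in NT (edgeR adjusted p = 0.0118) and 0.91 ± 0.23 on average (adjusted p = 0.00152), which is past the adjusted p but short of the fold threshold.

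TRIM3, an NHL-repeat ligase studied in neurons (chr11:6448613-6474459, 12 exons), measured 1.68 and 1.99 CPM in sgAAVS1 NT, 1.87, 2.8 and 2.46 with IFNγ, and 1.82 and 2.46 with IL-1β. In sgERH it measured 3.83, 1.98 and 5.78 CPM in NT, 4.62 and 4.9 with IFNγ, and 3.18, 7.62 and 4.21 with IL-1β. Of the 3 sgERH NT libraries, 1 lay within the sgAAVS1 range. The average log2 difference was 1.09 ± 0.28 (edgeR adjusted p = 0.00188), and no single treatment passed on its own. Without sgERH NT replicate 3 or sgERH IL-1β replicate 2 the average was 0.95 or 0.94, short of the fold threshold.

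TRIM39, a ligase that acts on the anaphase-promoting complex (chr6:30326479-30343729, 8 exons), measured 2.94 and 0.907 CPM in sgAAVS1 NT, 1.45, 2.05 and 1.23 with IFNγ, and 3.63 and 3.08 with IL-1β. Under sgERH the values were 6.09, 5.41 and 4.59 CPM in NT, 3.88 and 5.99 with IFNγ, and 3.01, 7.24 and 2.28 with IL-1β. Only the IL-1β groups overlapped. The log2 difference was 1.504 ± 0.51 in NT (edgeR adjusted p = 0.0297), 1.62 ± 0.50 with IFNγ (adjusted p = 0.0182), 0.30 ± 0.48 with IL-1β (adjusted p = 0.687) and 1.14 ± 0.29 on average (edgeR adjusted p = 0.00168). With IFNγ the call was lost without sgAAVS1 IFNγ replicate 1 or 3 or sgERH IFNγ replicate 3 (1.27 to 1.57, adjusted p from 0.0516 to 0.191). The average was 0.92 without sgAAVS1 NT replicate 3 or sgERH IL-1β replicate 2. TRIM39-RPP21, whose annotation overlaps it, had an average log2 difference of -0.30, and every TRIM39 read was multimapping.

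**Figure D5:**
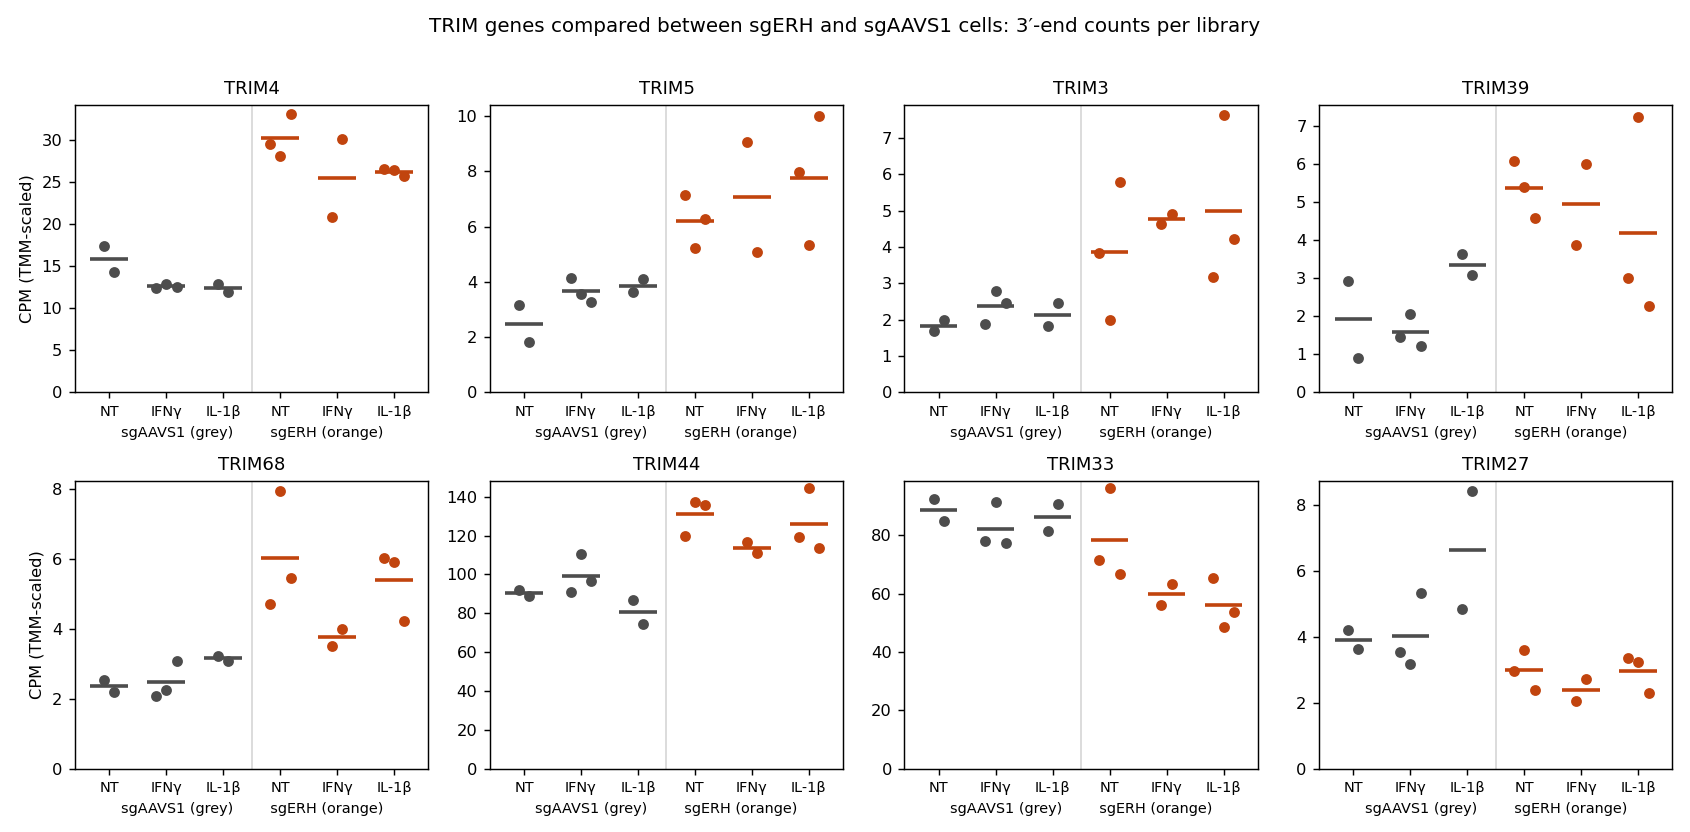
TMM-scaled CPM of 8 TRIM genes in each library by guide and treatment, with points for libraries and a bar at the group mean. TRIM4, TRIM5, TRIM68 and TRIM44 have every orange sgERH library above every grey sgAAVS1 library (for TRIM4 20.9 to 33.2 CPM against 11.9 to 17.4), while TRIM33 and TRIM27 have lower sgERH means.

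Other members past the adjusted p on average were higher by less. By class, 6 of 17 tested SPRY genes were higher and 3 lower, near the shares of all genes on the adjusted p alone (25.5% and 23.2%), and 3 of 3 tested RING genes without a C-terminal domain were higher, TRIM8 (0.68 ± 0.11), TRIM52 (0.62 ± 0.15) and TRIM56 (0.26 ± 0.07), with edgeR adjusted p of 1.19e-05, 0.00115 and 0.00514. The TRIM56 average joins opposite signs: on the adjusted p alone it was higher in sgERH in NT and with IL-1β, and lower with IFNγ. TRIM8 is a regulator of STAT and NF-κB signalling. Of 4 tested genes without a RING, 2 were higher, TRIM44 (0.46 ± 0.07, edgeR adjusted p = 8.8e-06) and TRIM16, which acts at damaged endomembranes (0.49 ± 0.15, adjusted p = 0.0068). TRIM44 measured 91.7 and 88.9 CPM in sgAAVS1 NT, 90.8, 111 and 96.5 with IFNγ, and 87 and 74.4 with IL-1β, against 120, 138 and 136, 117 and 111, and 119, 145 and 114 in the same treatments of sgERH. TRIM16L, the near copy of TRIM16, was higher by 1.09 ± 0.15 on average (edgeR adjusted p = 1.17e-06).

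TRIM37, a MATH-domain ligase of peroxisomes and centrosomes, passed (0.41 ± 0.08, edgeR adjusted p = 0.000214). It was the 1 of 3 that did so among genes whose C-terminal domain is their own. The others, TRIM23 with an ARF domain and TRIM45 with a filamin domain, had 0.13 and 0.26. Of the 3 tested NHL genes TRIM3 was the one that passed, and TRIM2 and TRIM32 had 0.15 and -0.13. TRIM35 and TRIM11 of the SPRY class had 0.50 ± 0.14 and 0.21 ± 0.07 (edgeR adjusted p = 0.00473 and 0.0145). In a list of 7 TRIM genes linked to p53, 5 were tested, 2 were higher on average (TRIM8 and TRIM39) and 1 lower (TRIM13), with a median of 0.28, beside 25.5% and 23.2% of all genes.

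Lower members on average were TRIM25, TRIM69, TRIM33, TRIM13 and TRIM27, none past the fold threshold. TRIM25 passed the adjusted p as lower with IFNγ (-1.305) and not in NT or with IL-1β. Its means in sgAAVS1 and sgERH were 26.8 and 20.2 CPM in NT and 28.5 and 26.6 CPM with IL-1β. TRIM69 (average -0.43 ± 0.15) was lower in sgERH with IFNγ, had -0.21 ± 0.26 in NT (edgeR adjusted p = 0.593), and with IL-1β had 0.48 ± 0.29 (adjusted p = 0.233), where its sgERH libraries were the higher ones. TRIM33, a PHD-bromodomain regulator of Smad signalling with 20 exons, measured 92.4 and 85 CPM in sgAAVS1 NT, 78.1, 91.3 and 77.2 with IFNγ, and 81.5 and 90.8 with IL-1β. In sgERH cells it had 71.7, 96.2 and 66.8 CPM in NT, 56.2 and 63.4 with IFNγ, and 65.5, 48.6 and 53.7 with IL-1β. Of the sgERH libraries kept, 1 from NT was the highest of all and the other 7 were below every sgAAVS1 library kept. The average difference was -0.42 ± 0.09 (edgeR adjusted p = 0.000209). In the left-out libraries unscaled TRIM33 was 3.41 CPM in sgAAVS1 NT, 38.2 in sgAAVS1 IL-1β and 16.5 in sgERH IFNγ. The other PHD-bromodomain genes, TRIM24 and TRIM66, had 0.28 ± 0.13 and 0.29 ± 0.32 (edgeR adjusted p = 0.0804 and 0.477). TRIM13, a ligase of the endoplasmic reticulum membrane, had -0.27 ± 0.10 (adjusted p = 0.021).

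TRIM27, a transcriptional repressor of the SPRY class, measured 4.2 and 3.63 CPM in sgAAVS1 NT, 3.53, 3.17 and 5.32 with IFNγ, and 4.84 and 8.41 with IL-1β. With ERH targeted it had 2.96, 3.6 and 2.38 CPM in NT, 2.03 and 2.72 with IFNγ, and 3.36, 3.24 and 2.28 with IL-1β. The widest gap stood in IL-1β, where the log2 difference was -1.16 ± 0.38 (edgeR adjusted p = 0.0257). Without sgAAVS1 IL-1β replicate 2, the highest library, it was -0.71 (adjusted p = 0.386), and without sgERH IL-1β replicate 3 it was -0.997 (edgeR adjusted p = 0.0782).

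With IFNγ present, 2 of 34 (5.88%) were higher in sgERH, TRIM39 and TRIM4, against 5.24% of all genes, and 2 (5.88%) were lower, TRIM25 and TRIM69, against 2.37%. On the adjusted p alone 5 were higher against 12.4% of all genes, TRIM4, TRIM8, TRIM37, TRIM39 and TRIM52, and 5 were lower against 12.6%, TRIM13, TRIM25, TRIM33, TRIM56 and TRIM69. TRIM25 was lower by a log2 difference of -1.30 ± 0.17 (edgeR adjusted p = 2.85e-06) and TRIM69 by -1.55 ± 0.22 (adjusted p = 7.07e-06). TRIM56 had -0.40 ± 0.12 (edgeR adjusted p = 0.0206), although in NT it was higher in sgERH by 0.49 ± 0.13 (adjusted p = 0.00611) and with IL-1β by 0.68 ± 0.13 (adjusted p = 0.000321). The sgERH NT libraries of TRIM56 thus began above the sgAAVS1 NT libraries and ended below the sgAAVS1 IFNγ libraries. TRIM21 had -0.49 ± 0.29 with IFNγ (edgeR adjusted p = 0.225). These comparisons share the sgAAVS1 IFNγ libraries with the IFNγ response above and are not independent of it. Of the partner list UBE2L6 was lower with IFNγ in sgERH (-1.08 ± 0.19, edgeR adjusted p = 0.000119) and TAB3 higher (1.34 ± 0.32, adjusted p = 0.00248).

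With IL-1β present, 2 of 34 were higher in sgERH, TRIM4 and TRIM5 (the latter lost in most alternative fits, as given above), against 5.68% of all genes, and 1, TRIM27, was lower against 2.8%. On the adjusted p alone 7 (20.6%) were higher against 13.3% of all genes, TRIM4, TRIM5, TRIM8, TRIM11, TRIM37, TRIM44 and TRIM56, and 2 were lower against 13.1%, TRIM27 and TRIM33. TRIM4 and TRIM8 were the 2 that passed the adjusted p as higher in each of the 3 treatments.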

How the data were processed

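The deposited values are whole-number counts of reads per gene, not normalized, with the authors' count of multimapping reads beside them. The submitters' processing notes name FastQC 0.11.8 and Trim Galore 0.6.2 for read quality and trimming. The authors aligned reads to GRCh38 by SlamDunk, and counting used 3′-end windows from 3-GAmES, collapsed to 1 row per gene symbol. Reads carry no molecular identifiers, so depth and floors reflect counting error only.

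The 36 genes, the gene lists and the tests were chosen with earlier results of these data known. Counts of 15 libraries were fitted in 1 model of the 6 groups with edgeR 4.0.16 (R 4.3.3; TMM, filterByExpr, robust quasi-likelihood F test, Benjamini-Hochberg over 13370 genes). The common biological coefficient of variation was 12.6%. Calls needed an adjusted p of at most 0.05 and a log2 fold change of at least 1 in size, the thresholds of the study. The 10 comparisons were 4 cytokine responses (2 per guide), 4 guide contrasts (1 per treatment and their mean) and 2 interactions. Alternatives were DESeq2 1.42.0, its size factors in edgeR, no filter, all 18 libraries, counts without multimapping reads, the compared groups alone, a replicate block, and each library left out in turn. The fitting script was checked on simulated data.

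Genes given in every library were those called in any comparison, TRIM5, TRIM14, TRIM21, TRIM22, TRIM25 and TRIM38, and the 3 with the highest mean CPM. Others follow by the smallest adjusted p within a class or list, except TRIM33, chosen after its values were seen. All 36 members were placed on GRCh38 with GENCODE 44, and 27 had a RefSeq promoter. Columns of reads with T-to-C changes and protein sequences were not used here. A further gene of the IFNγ reference list is not reported here.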

Additional observations from a re-analysis of the deposited data

Results flagged for a closer look

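TRIM56 differed between guides in its IFNγ response by a log2 difference of -0.885 ± 0.18 (SE, edgeR adjusted p = 0.0216, interaction term), past the adjusted p but not the fold threshold. It went from 54.2 and 51.7 CPM to 108, 110 and 113 CPM in sgAAVS1 cells and from 66.5, 79.8 and 76.5 CPM to 84.5 and 83.6 CPM in sgERH cells. Without scaling, the left-out library labelled sgAAVS1 NT held 103 CPM, against 49.5 and 47.6 in those kept, and the left-out sgERH IFNγ library held 156 CPM, against 90.3 and 87.7. With all 18 libraries in the fit the difference was 0.06 ± 0.46 (edgeR adjusted p = 0.945). Of 10 fits that left out 1 library each, 2 passed the adjusted p and 8 did not, with values from -0.96 to -0.83 over the 10.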

How the results depend on the processing

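Counts of called TRIM genes depended on the libraries kept. With all 18 libraries, 1 was called with IFNγ in sgAAVS1 (main count 4), 2 between guides with IFNγ (main 4) and 0 between guides with IL-1β (main 3). With the compared groups alone, 2 were called with IFNγ in sgERH (main 0), 1 with IL-1β in sgAAVS1 (main 0), 1 for the guide difference in the IFNγ response (main 0) and 1 between guides with IL-1β. Without the filter on low counts, 2 were called with IFNγ in sgERH and 1 for the guide difference in the IFNγ response, and DESeq2 called 1 with IFNγ in sgERH. Without multimapping reads 2 were called between guides with IFNγ, and TRIM26, TRIM27, TRIM39 and TRIM69 could not be tested. The cause of the other shifts was not tested. Leaving out 1 library at a time gave 0 to 4 calls between guides in NT (0 without sgAAVS1 NT replicate 3), 1 to 4 on average (1 without sgAAVS1 NT replicate 3, 2 without sgERH NT replicate 3 or sgERH IL-1β replicate 2), 1 to 3 with IL-1β (1 without sgAAVS1 IL-1β replicate 2 or sgERH IL-1β replicate 3) and 0 to 1 with IFNγ in sgERH (1 without sgERH NT replicate 2). For 28 named results of TRIM genes, 264 alternative values were counted, only where the main or the alternative fit made a call. Of these, 45 lost a call, 18 gained one and 0 changed sign. Values called in neither fit were not tracked. The guide difference of TRIM56 in the IFNγ response, never called, went from -0.88 to 0.06 with all 18 libraries.

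Deviations of same-numbered libraries from their group means correlated from -0.06 to 0.142 over 30 pairs, 1 of them above 0.1. Pairs of unlike number ran from -0.104 to 0.092 over 63 pairs. In groups of 2 libraries the deviations mirror each other, so these values cannot decide whether equal numbers mark paired libraries. With the replicate number as a block, TRIM21 was called with IL-1β in sgAAVS1 (log2 fold change 1.41, edgeR adjusted p = 0.0373), 1 call against 0, and the other counts of calls stayed as they were. Over all genes the block called 174 with IL-1β in sgAAVS1, against 85 without it.

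Depth limits the low members: TRIM3, TRIM5, TRIM27, TRIM39 and TRIM68 had 5 to 57 reads per library. Over all genes, IFNγ in sgAAVS1 called 80 in the main fit and 22 with all 18 libraries, and IFNγ in sgERH called 2 in the main fit, 8 by DESeq2 and 16 without the filter. Removing the filter moved the median of all genes between guides on average from 0.04 to 0.13.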
